A study of Mus musculus with 23 samples.

Results

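The Fc receptors described here are 5 genes of 19938 tested: Fcgr1, Fcgr4 and Fcgr3, the activating receptors for the constant part of IgG, Fcer1g, the signalling chain they share, and Fcgr2b, the inhibitory receptor. They were chosen by symbol, each had 1 probe set that carried no other symbol, and all 5 were measured. The probe sets were 10500335, 10351509, 10360040, 10360070 and 10360028, in the same order. Their RNA was measured on 23 arrays. The cells were macrophages grown from wild-type C57BL/6 bone marrow in M-CSF (macrophage colony-stimulating factor), and they were treated after M-CSF had been withdrawn. The cells received stearic acid (SA, saturated) or oleic acid (OA, the same chain length with 1 double bond) at 250 µM on bovine serum albumin (BSA), each for 20 h or for 5 h (n = 4 per acid and time). The bacterial TLR4 ligand lipopolysaccharide (LPS) was used at 1 ng/mL for 5 h (n = 4), and BSA alone at 125 µM for 5 h was the vehicle (n = 3). The sample labels give 5 h for LPS and vehicle where the series text gives 4 h. There is no vehicle of 20 h, so in a comparison of 20 h with vehicle, treatment and time cannot be told apart. The labels speak of replicate wells and the series text of biological replicates, so the spread behind each p-value may be technical.

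Fcγ receptors let macrophages take up particles and immune complexes coated with IgG. FCGR1 binds monomeric IgG2a with high affinity, whereas FCGR3 and FCGR4 bind IgG in complexes, and in the mouse all of them need FCER1G at the cell surface. FCER1G carries an activation motif (ITAM) that recruits the kinase SYK, and FCGR2B carries an inhibitory motif (ITIM) that recruits the phosphatase SHIP1, the product of Inpp5d. The balance of activating and inhibitory receptors is known to set how strongly a macrophage responds to immune complexes.

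The labelled cell type was checked first. All 11 measured macrophage markers (among them Csf1r, Adgre1, Cd68 and Itgam) lay above the median gene mean of 4.25 on the log2 scale in every group. Of the 10 NK and T cell markers none did, and of the mast cell and basophil list 1 or 2 of 10 did, with Fcer1a at 1.95 and Ms4a2 at 2.34. Of 9 B cell markers 2 did (Cd79b and Cd22), with Ms4a1 at 2.18 and Cd79a at 2.57, and of 8 stromal markers 2 did. Neutrophil genes were high (S100a8 at 11.39, Ngp at 8.06, 7 of 10 above the median), while Ly6g stood at 2.78 and Elane at 3.68. Of 10 dendritic cell markers 3 lay above the median gene (Bst2 at 9.21, Ccl22 at 5.74 and Ccr7 at 4.62), while Flt3 stood at 3.43 and Zbtb46 at 3.45. Array medians were 3.98 to 4.12, and every group mean of the 5 Fc receptor genes lay above them. Replicate 2 of 20 h SA was the most deviant array in its group. Over all genes, its deviations from the group means had an SD of 0.215, where the remaining 20 h SA arrays had 0.153 to 0.161. Fc receptor calls that involve 20 h SA are therefore also given without it in the comparisons of the acids, of the times and with vehicle. In these bulk samples, fewer cells of a type and less RNA per cell cannot be told apart.

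The promoters of 3 members are shown because Fcgr1 and Fcgr2b had the widest ranges between groups and Fcgr4 also rose with LPS. Each covers 250 bases before to 50 bases after the RefSeq transcript start in build GRCm38.p6, 5′ to 3′ on the gene's strand. Capitals mark matches on either strand to the GAS element, the interferon-gamma activated site (TTCNNNGAA), to a pair of interferon response half-sites (GAAA, 2 bases, GAAA) or to the core of the PU.1 site (GAGGAA).
Fcgr1 (chr3:96293920-96294219, minus strand): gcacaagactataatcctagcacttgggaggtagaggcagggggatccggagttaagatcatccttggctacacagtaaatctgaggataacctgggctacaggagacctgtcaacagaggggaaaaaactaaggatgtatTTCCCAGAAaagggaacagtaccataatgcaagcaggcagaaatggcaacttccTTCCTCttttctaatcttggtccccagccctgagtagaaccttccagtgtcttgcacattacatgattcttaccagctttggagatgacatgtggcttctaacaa
Fcgr2b (chr1:170976022-170976321, minus strand): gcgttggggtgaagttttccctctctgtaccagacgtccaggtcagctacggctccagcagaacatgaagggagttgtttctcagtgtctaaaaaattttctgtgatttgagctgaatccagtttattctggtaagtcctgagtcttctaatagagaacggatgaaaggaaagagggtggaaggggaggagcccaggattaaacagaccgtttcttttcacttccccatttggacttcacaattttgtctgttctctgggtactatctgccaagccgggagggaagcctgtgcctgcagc
Fcgr4 (chr1:171018676-171018975, plus strand): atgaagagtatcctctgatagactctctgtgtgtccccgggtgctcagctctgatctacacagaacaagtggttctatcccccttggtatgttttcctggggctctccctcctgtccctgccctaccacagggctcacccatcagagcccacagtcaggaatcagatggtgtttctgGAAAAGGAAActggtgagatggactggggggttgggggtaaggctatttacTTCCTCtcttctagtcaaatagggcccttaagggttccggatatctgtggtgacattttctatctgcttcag
The Fcgr1 window held a GAS match, TTCCCAGAA, whose first base lies 109 bases before the start, and a PU.1 core 55 bases before it. The Fcgr4 window held the interferon pair, GAAAAGGAAA, 73 bases before the start, and a PU.1 core 22 bases before it. Among 32851 RefSeq promoter windows of the same length, 8.30% held the GAS letters, 3.44% the interferon pair and 28.3% the PU.1 core. No capital appears in the Fcgr2b window, which says only that these letters are not in it. The Fcgr3 windows of its 2 listed starts held a PU.1 core and the Fcer1g window held no match. A match is a description of letters, and binding was not measured.

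Fcgr1, the high-affinity receptor, had the lowest levels with SA and the highest with LPS. The log2 expression was 5.98, 5.78, 5.66 and 6.07 on the 20 h SA arrays, against 7.97, 7.82, 8.06 and 8.15 on the 20 h OA arrays. At 5 h it was 6.59, 6.66, 6.29 and 6.51 with SA, against 7.58, 7.52, 7.71 and 7.50 with OA. LPS gave 8.69, 8.32, 8.58 and 8.87, against 7.16, 7.57 and 7.38 with vehicle. Thus every SA array lay below every array of the other 4 groups, and every 20 h SA array below every 5 h SA array. The 5 h OA and vehicle arrays overlapped. The group means spanned 2.74 log2 units, 6.70-fold, a wider range than in 99.1% of the genes tested. From high to low the groups ran LPS, 20 h OA, 5 h OA, vehicle, 5 h SA and 20 h SA. Of the 5 steps between neighbours, that from 5 h OA to vehicle did not pass (0.21, adjusted p = 0.940), and the step between the OA times passed narrowly (0.42, adjusted p = 0.0464). In the top step LPS was above 20 h OA by 0.62 (adjusted p = 0.000225), in a pair of groups where 29.1% of all genes were called.

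**Figure D1:**
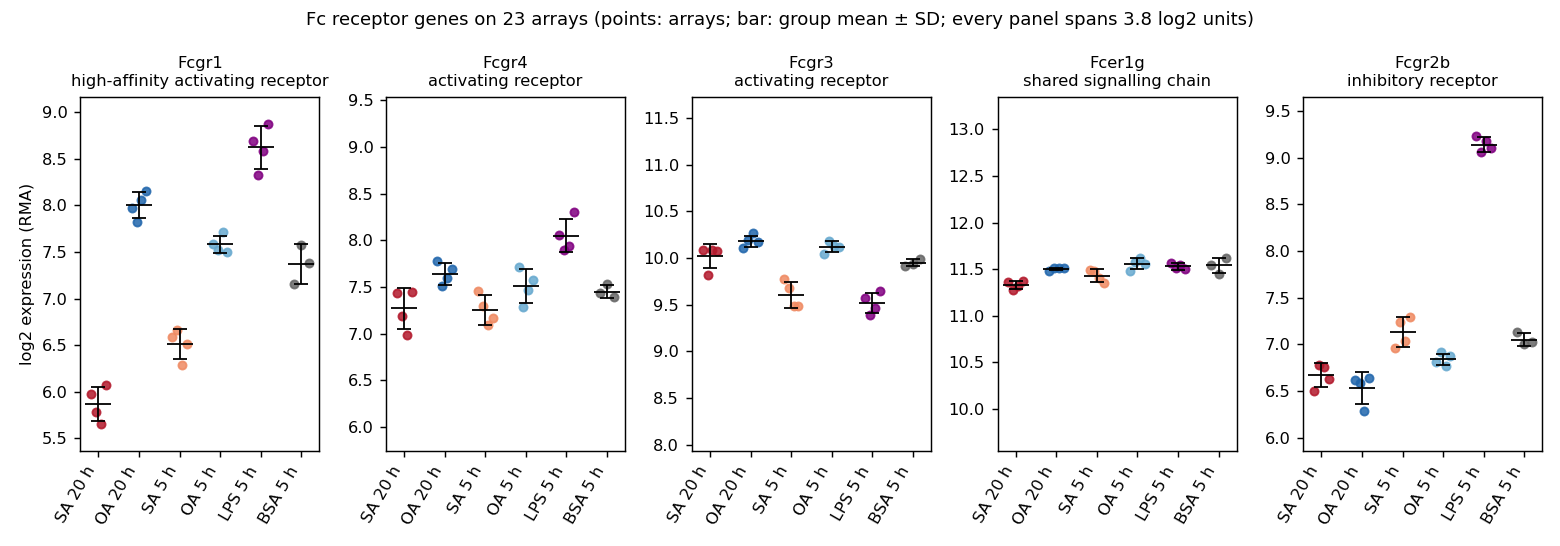
Log2 expression (RMA) of the 5 Fc receptor genes, 1 panel per gene, in the 6 groups; points are arrays, the bar is the group mean with its SD (n = 4, vehicle n = 3), and each panel has the same height in log2 units. Fcgr1 is lowest in 20 h SA (5.66 to 6.07) and Fcgr2b stands out in LPS (9.06 to 9.23), while Fcer1g stays within 11.28 to 11.62.

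The 2 acids were set against each other at the same dose and time. At 20 h Fcgr1 was 4.36-fold lower with SA than with OA, at a log2 change of -2.13 ± 0.12 (SE, adjusted p = 1.80e-12 in limma). At 5 h it was 2.10-fold lower, at -1.07 ± 0.12 (SE, adjusted p = 1.11e-06). The difference between the acids was larger at 20 h by -1.06 ± 0.17 (SE, adjusted p = 0.000165 for the interaction). Between 5 h and 20 h the gene changed by -0.64 with SA (adjusted p = 0.000438) and by 0.42 with OA (adjusted p = 0.0464). The OA change was not past the threshold without any one of 7 of the 8 OA arrays (adjusted p 0.0529 to 0.142, past it only without replicate 2 of 20 h OA), nor with arrays centred on their medians (0.100). Without replicate 2 of 20 h SA, the SA against OA difference at 20 h was -2.09, the interaction -1.03 and the change over time in SA -0.61, all past the test. On the 20 h arrays 10 of 11 macrophage markers were also lower with SA than OA (median -0.90), where 8.95% of all genes were called lower. In the interaction 8 of the 11 markers passed with a negative value as well (median -0.73), where 3.40% of all genes did. The part of these markers in the Fcgr1 result was not tested.

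Fcgr4, an activating receptor for IgG2a and IgG2b, was below its OA level in SA at 20 h, and above its vehicle level in LPS. Its values were 7.44, 7.19, 6.98 and 7.45 with 20 h SA against 7.78, 7.51, 7.60 and 7.69 with 20 h OA, and 7.46, 7.29, 7.09 and 7.17 with 5 h SA against 7.71, 7.28, 7.47 and 7.57 with 5 h OA. LPS gave 8.06, 7.90, 7.94 and 8.30, and vehicle 7.43, 7.53 and 7.39. The acids did not overlap at 20 h and did overlap at 5 h, and the LPS arrays lay above all others. At 20 h the gene was lower with SA by a log2 change of -0.38 ± 0.12 (SE, adjusted p = 0.0259). This call was lost without replicate 1 (0.0915) or 4 (0.0648) of 20 h OA and without replicate 2 (0.0665) or 3 (0.127) of 20 h SA. At 5 h the difference was -0.25 (95% interval -0.49 to -0.01, adjusted p = 0.275). Its order from high to low was LPS, 20 h OA, 5 h OA, vehicle, 20 h SA and 5 h SA, and of these neighbours LPS and 20 h OA alone differed (0.40, adjusted p = 0.00975).

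Fcgr3, the low-affinity activating receptor, was lowest with LPS and with 5 h SA. Its values were 10.09, 9.82, 10.09 and 10.07 with 20 h SA against 10.11, 10.19, 10.27 and 10.17 with 20 h OA. At 5 h they were 9.77, 9.68, 9.48 and 9.48 with SA against 10.04, 10.18, 10.13 and 10.12 with OA. LPS gave 9.57, 9.39, 9.46 and 9.65, and vehicle 9.91, 9.94 and 9.99. At 5 h no SA or LPS array reached the lowest vehicle or OA array. SA at 5 h was lower than OA by a log2 change of -0.51 ± 0.09 (SE, adjusted p = 0.000278), and at 20 h the difference was -0.17 (95% interval -0.34 to 0.01, adjusted p = 0.237). From 5 h to 20 h of SA the gene rose by 0.41 ± 0.09 (SE, adjusted p = 0.00115), or by 0.48 (adjusted p = 0.000272) without replicate 2 at 20 h, the opposite direction to Fcgr1 on the same arrays. The change of the acid difference between the times, 0.35 ± 0.12 (SE), was not past the threshold (adjusted p = 0.119), and was 0.41 (adjusted p = 0.0373) when the deviant replicate of 20 h SA was left out, whose 9.82 is the low value of its group. Its order was 20 h OA, 5 h OA, 20 h SA, vehicle, 5 h SA and LPS, and vehicle and 5 h SA were the only neighbours that differed (0.34, adjusted p = 0.0375).

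Fcer1g, the chain that FCGR1, FCGR3 and FCGR4 share, varied least of the 5 genes. Its values were 11.36, 11.28, 11.32 and 11.37 with 20 h SA, 11.48, 11.51, 11.51 and 11.51 with 20 h OA, 11.49, 11.48, 11.41 and 11.35 with 5 h SA, and 11.48, 11.58, 11.62 and 11.56 with 5 h OA. LPS gave 11.57, 11.51, 11.55 and 11.50, and vehicle 11.54, 11.45 and 11.62. The 20 h SA arrays did not overlap the 20 h OA arrays but did overlap the 5 h SA arrays. SA against OA at 20 h, -0.17 ± 0.07 (SE), did not pass (adjusted p = 0.0986), but did at 0.00321 when the variance was allowed to depend on the level. No step between neighbouring groups passed, and the span of 0.23 between group means was wider than in 22.4% of the genes tested. Among pairs that were not neighbours, 20 h SA differed in limma from 5 h OA by -0.23 (adjusted p = 0.0175). From LPS it differed by -0.20 (adjusted p = 0.0272), and both pairs mix treatment and time. Against vehicle the 20 h SA change of -0.20 did not pass (adjusted p = 0.0631), nor without replicate 2 of 20 h SA (0.117). It did pass when the variance was allowed to depend on the level (0.00116) and without the dim genes (0.0342). LPS differed from vehicle by -0.00 with a 95% interval of -0.15 to 0.15, and the sign of this value changed with the scaling of the arrays.

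Fcgr2b, the inhibitory receptor, separated LPS from the other 5 groups. With LPS its values were 9.23, 9.06, 9.18 and 9.10, against 7.13, 7.00 and 7.02 with vehicle. It stood at 6.50, 6.78, 6.76 and 6.63 with 20 h SA against 6.62, 6.58, 6.28 and 6.64 with 20 h OA, and at 6.96, 7.24, 7.03 and 7.29 with 5 h SA against 6.81, 6.92, 6.77 and 6.87 with 5 h OA. The LPS arrays lay above all others, the acids overlapped at 20 h, and each 5 h SA array lay above each 5 h OA array. The difference between the acids did not pass at 20 h (0.14, 95% interval -0.06 to 0.33, adjusted p = 0.420) or at 5 h (0.29, 95% interval 0.09 to 0.48, adjusted p = 0.0818). The 5 h difference did pass without replicate 1 of 5 h SA (0.0448) and when the variance was allowed to depend on the level (0.0372). Between 5 h and 20 h the gene changed with SA by -0.46 ± 0.09 (SE, adjusted p = 0.00102), or by -0.50 without replicate 2 at 20 h (adjusted p = 0.00103), and with OA by -0.31 ± 0.09 (SE, adjusted p = 0.0616). Its order was LPS, 5 h SA, vehicle, 5 h OA, 20 h SA and 20 h OA, and the step from LPS to 5 h SA, 2.01, was the only one that passed (adjusted p = 1.59e-14).

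LPS was set against vehicle as the inflammatory comparison at 5 h, where 22.4% of all genes were called, 9.22% higher and 13.2% lower. Of the 5 Fc receptor genes 3 rose and 1 fell. Fcgr2b rose 4.26-fold, at a log2 change of 2.09 ± 0.10 (SE, adjusted p = 3.13e-14), and Fcgr1 2.37-fold, at 1.24 ± 0.13 (SE, adjusted p = 4.30e-08). Fcgr4 rose by 0.60 ± 0.13 (SE, adjusted p = 0.000879) and Fcgr3 fell by 0.43 ± 0.09 (SE, adjusted p = 0.00103). Thus the inhibitory receptor and 2 activating receptors moved up together while the third activating receptor moved down. Fcgr2b and Fcgr3 are known to be closely related in their extracellular parts. Their probe sets moved in opposite directions here, and probe sequences were not used to look for cross-hybridisation.

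SA at 5 h was set against the same vehicle arrays, which the LPS comparison shares. With SA, 2 of the 5 genes fell and none rose, where 3.33% of all genes were called, 1.94% higher and 1.39% lower. The falls were in Fcgr1 by -0.86 ± 0.13 (SE, adjusted p = 0.000130) and Fcgr3 by -0.34 ± 0.09 (SE, adjusted p = 0.0375). The Fcgr3 call was lost without any single vehicle array (adjusted p 0.0907 to 0.155), without replicate 3 or 4 of SA (0.122 and 0.114), with arrays centred on their medians (0.0913) and in a fit of the SA and vehicle arrays alone (0.169). Fcgr2b differed from vehicle by 0.08 (95% interval -0.13 to 0.29). Set directly against LPS, SA gave lower levels of 3 of the 5 genes, where 22.1% of all genes were called, 13.0% higher and 9.11% lower. The differences were -2.11 for Fcgr1 (adjusted p = 6.85e-13), -2.01 for Fcgr2b (adjusted p = 1.59e-14) and -0.79 for Fcgr4 (adjusted p = 9.61e-06). For Fcgr3 the difference was 0.08 (95% interval -0.09 to 0.26).

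OA at 5 h gave no called change in the 5 genes by limma, 0 also at an unadjusted p under 0.05, where 0.0702% of all genes were called, 0.0201% higher and 0.0502% lower. The largest of these log2 changes were 0.21 for Fcgr1 (95% interval -0.06 to 0.48) and -0.21 for Fcgr2b (95% interval -0.42 to 0.00). Between the acids at 5 h, 2 of the 5 fell, where 5.67% of all genes were called, 3.30% higher and 2.37% lower. At 20 h 2 of the 5 fell, where 16.7% were called, 7.72% higher and 8.95% lower. Over the 5 genes the median change of SA against OA at 20 h was -0.17, beside 0.03 for all genes. From 5 h to 20 h, 1 rose and 2 fell with SA, where 12.8% of all genes were called, 6.23% higher and 6.57% lower. With OA 1 rose, where 4.38% were called, 2.58% higher and 1.80% lower. In the interaction 1 of the 5 passed, Fcgr1, where 4.98% of all genes did, 1.58% with a positive and 3.40% with a negative value.

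Set against the 5 h vehicle, which mixes treatment and time, the acids at 20 h moved Fcgr1 to opposite sides. It was lower with SA by -1.50 ± 0.13 (SE, adjusted p = 3.81e-09) and higher with OA by 0.63 ± 0.13 (SE, adjusted p = 0.00320). Fcgr2b was lower with both, by -0.38 with SA (adjusted p = 0.00955, and 0.0575 without replicate 1 of vehicle) and by -0.52 with OA (adjusted p = 0.00192). Of all genes, 15.9% were called with 20 h SA (7.86% higher, 8.02% lower) and 4.70% with 20 h OA (2.59% higher, 2.11% lower). Of the 5 genes 2 were called in each. When replicate 2 of 20 h SA was left out, the SA values were -1.47 for Fcgr1 (adjusted p = 4.02e-08) and -0.42 for Fcgr2b (adjusted p = 0.00746).

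**Figure D2:**
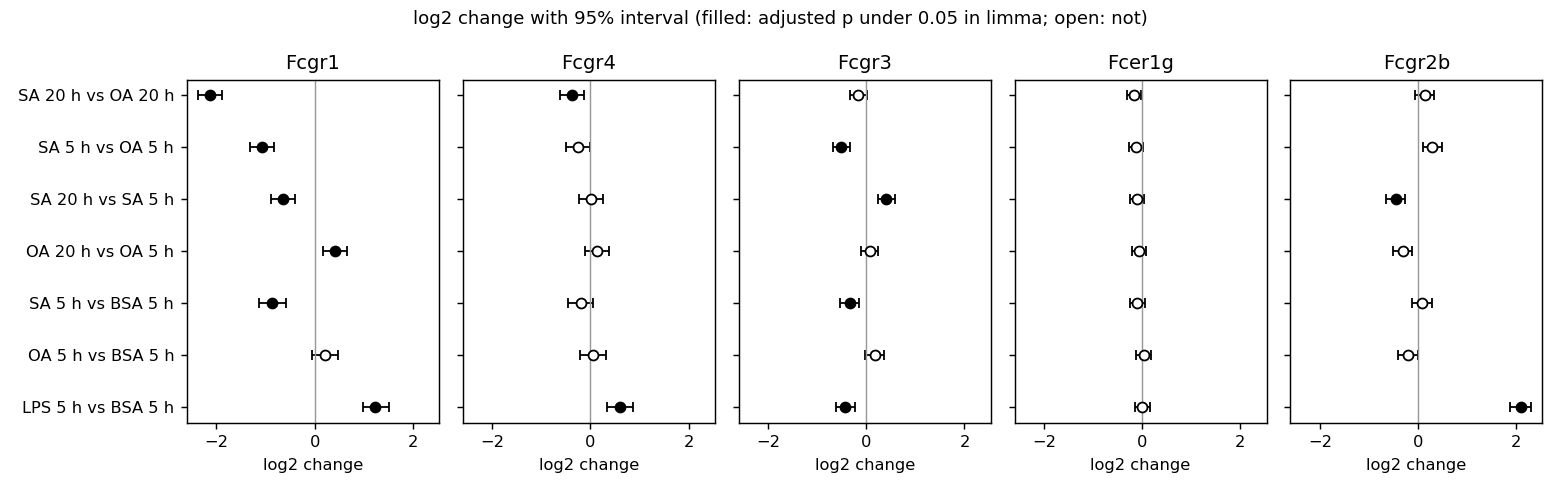
Log2 change (x axis) of each Fc receptor gene in 7 comparisons (rows), with its 95% interval; filled points passed the adjusted p threshold of 0.05 in limma and open points did not. Fcgr1 ranges from -2.13 for 20 h SA against 20 h OA to 1.24 for LPS against vehicle, and Fcgr2b reaches 2.09 for LPS.

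The difference between an activating gene and Fcgr2b within each array shows how unequally the 2 sides moved. It is given relative to the vehicle mean, as a description with no test. For Fcgr1 over Fcgr2b it was -1.12 ± 0.30 with 20 h SA, 1.14 ± 0.24 with 20 h OA, -0.94 ± 0.19 with 5 h SA, 0.41 ± 0.15 with 5 h OA and -0.85 ± 0.21 with LPS (SD, n = 4 each), and the vehicle arrays ran from -0.29 to 0.26. So with LPS, where Fcgr1 itself rose, its level relative to the inhibitory receptor was below that of vehicle on all 4 arrays. For Fcgr3 over Fcgr2b the LPS value was -2.52 ± 0.12 (SD, n = 4), 5.73-fold below vehicle. For Fcgr4 it was -1.49 ± 0.20 and for Fcer1g -2.09 ± 0.04 (SD, n = 4 each). With 20 h OA all 4 differences were positive on every array, with means of 0.49 to 1.14. With 20 h SA the means were also positive for Fcgr3 (0.45), Fcgr4 (0.20) and Fcer1g (0.18), and negative for Fcgr1 alone. For Fcgr3 and Fcer1g they were positive on every 20 h SA array, and for Fcgr4 they ran from -0.18 to 0.54. Both 20 h groups are set here against a vehicle of 5 h. The 4 differences share 1 Fcgr2b value per array, so they are not separate results. Against vehicle Fcgr2b itself changed by -0.52 with 20 h OA, by -0.38 with 20 h SA and by 2.09 with LPS, and Fcer1g by -0.03, -0.20 and -0.00.

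**Figure D3:**
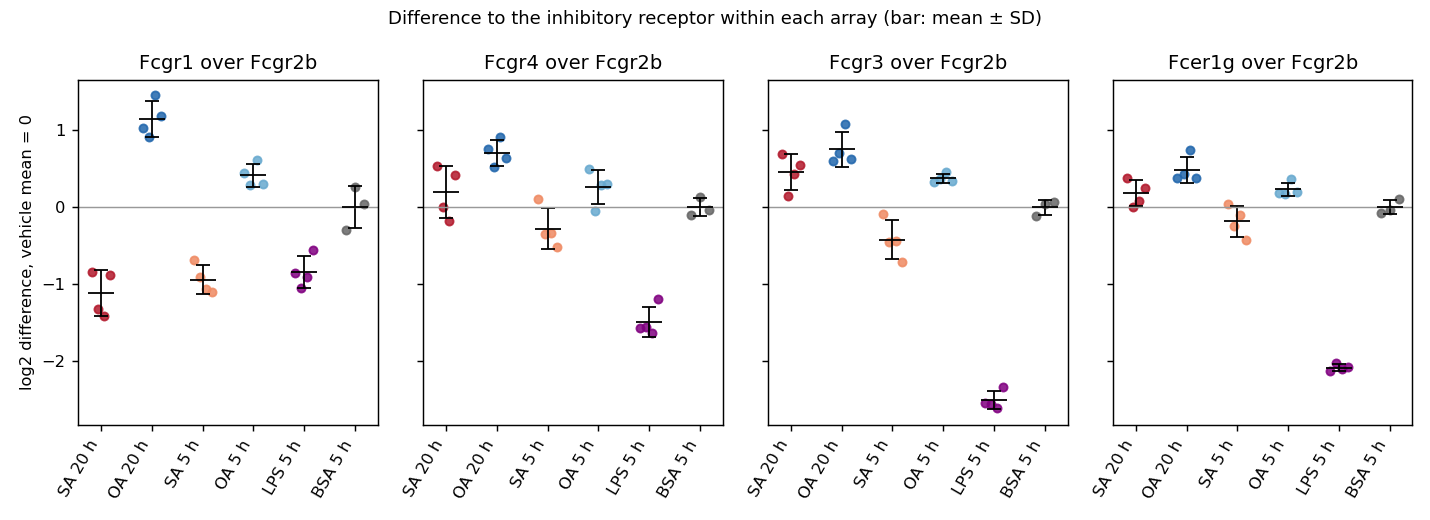
Log2 difference (y axis, vehicle mean set to 0) between each activating gene or Fcer1g and the inhibitory Fcgr2b on the same array; points are arrays and the bar is the mean with its SD (n = 4, vehicle n = 3). LPS arrays lie below vehicle in every panel, and every panel subtracts the same Fcgr2b values. Fcgr1 over Fcgr2b separates SA (-1.42 to -0.69) from OA (0.29 to 1.46) at both times.

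Genes downstream of the receptors were described from lists chosen with earlier results known. Of all genes, 9.22% were called higher and 13.2% lower with LPS. Of 24 measured ITAM kinases and adaptors, 9 rose and 4 fell with LPS (median 0.06, all genes -0.02). The adaptor Lcp2 rose by 1.85, the kinase Src by 1.74, Malt1 by 1.57 and Syk by 0.94, each past the test. Of 11 inhibitory phosphatases, Dok adaptors and Cbl ligases, 1 rose and 5 fell with LPS (median -0.27). The largest fall among them was in Inpp5d, the SHIP1 gene through which FCGR2B acts, at 6.67 ± 0.04 with LPS against 8.02 ± 0.06 with vehicle (SD, n = 4 and 3), a change of -1.35 (adjusted p = 2.17e-11). The phosphatase Ptpn22 changed by -1.14, Dok2 by -0.75 and Cblb by -0.56. Thus Fcgr2b RNA was higher and Inpp5d RNA lower on the same LPS arrays.

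Between the acids at 20 h, 7.72% of all genes were called higher and 8.95% lower. Of the 24 ITAM kinases and adaptors 2 rose and 6 fell (median -0.11, all genes 0.03). The lipid kinase subunit Pik3cg changed by -1.16 and the adaptor Blnk by -1.04, while Malt1 changed by 0.72 and Lat by 0.71. Of the 11 inhibitory genes 6 were lower with SA than with OA and none higher (median -0.28), led by Ptpn22 at -1.13. The second largest fall was in the adaptor Dok2, with a mean of 5.65 ± 0.16 in 20 h SA against 6.65 ± 0.06 in 20 h OA (SD, n = 4 each, adjusted p = 1.38e-09). Ubash3b followed at -0.58 and Inpp5d at -0.51. From 5 h to 20 h of OA 2 of the 11 rose, Ptpn22 by 1.00 and Cblb by 0.61, where 2.58% of all genes were called higher. With SA these 2 changed by -0.30 and 0.04 over the same times and did not pass. In SA 2 of the 11 fell over these times and none rose, where 6.57% of all genes were called lower. Of 15 genes of the phagocytic cup and NADPH oxidase 9 fell and none rose (median -0.31), including the actin regulator Coro1a at -1.39, Myo10 at -0.61, the GTPase Rac2 at -0.53 and Actr3 at -0.39. At 5 h, 4 of the ITAM genes rose and 1 fell, 1 of the inhibitory genes rose and 3 fell, and 1 of the phagocytic genes fell. Of all genes, 3.30% were called higher and 2.37% lower at 5 h. At that time Malt1 rose by 0.85, Syk by 0.41 and Src by 0.40, while Fgr changed by -0.52. Dok2 changed by -0.66, Ubash3b by -0.53, Inpp5d by -0.39 and Cblb by 0.32, and Coro1a by -0.45.

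**Figure D4:**
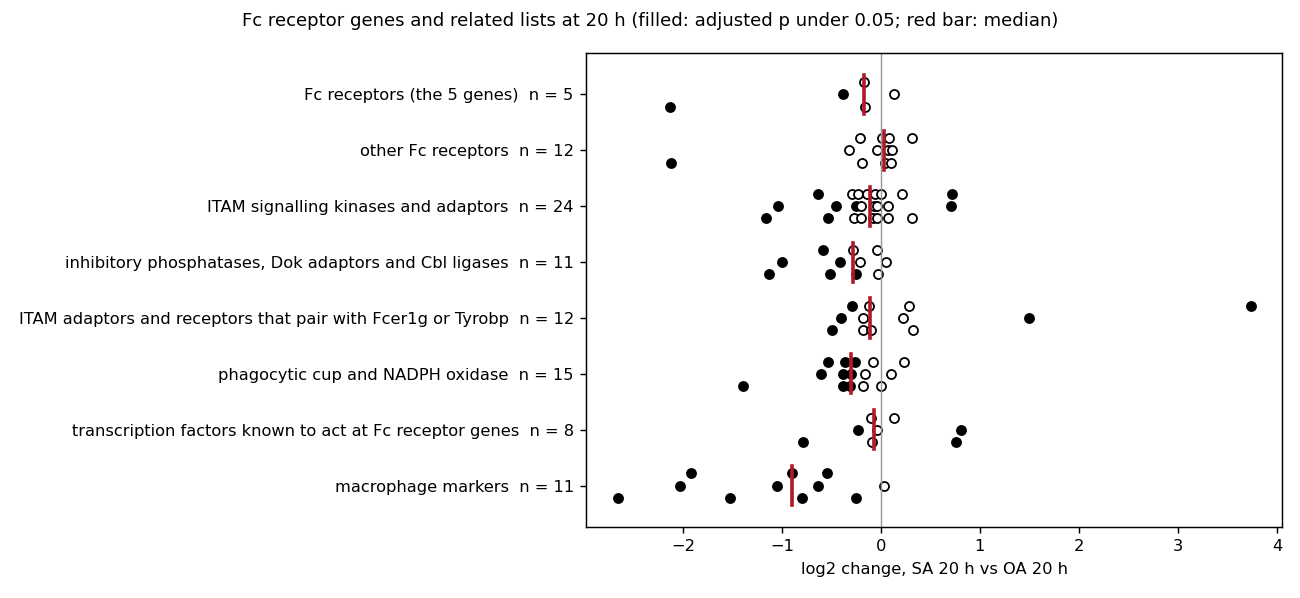
Log2 change of 20 h SA against 20 h OA (x axis) for the 5 Fc receptor genes, 6 related lists and the macrophage markers; each point is a gene, filled where the adjusted p was under 0.05, and the red bar is the list median. Fcgr1 at -2.13 and Fcrls at -2.12 lie far from their lists' medians of -0.17 and 0.03, and the macrophage markers have a median of -0.90.

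Among 12 other Fc receptors and related genes, Fcrls, a macrophage and microglia member of the Fc receptor-like family, was lower with SA at both times. It stood at 4.38 ± 0.48 against 6.50 ± 0.30 with OA at 20 h (SD, n = 4 each, change -2.12, adjusted p = 1.51e-09) and at 5.82 ± 0.22 against 6.46 ± 0.10 at 5 h (change -0.65, adjusted p = 0.0277). It was the 1 called gene of the list between the acids at each time, and its acid difference was larger at 20 h by -1.47 (adjusted p = 0.000312). With LPS the 1 called gene of the list was Trim21, the cytosolic IgG receptor and ubiquitin ligase, at 8.05 ± 0.11 against 5.53 ± 0.06 with vehicle (SD, n = 4 and 3, change 2.52, adjusted p = 3.67e-12). Of 12 measured ITAM adaptors and receptors that pair with Fcer1g or Tyrobp, 2 rose and 3 fell between the acids at 20 h. Higher with SA were the lectin receptors Clec4e by 3.74 and Clec4n by 1.50, and the lower genes included Clec5a at -0.50 and Pirb at -0.41. From 5 h to 20 h Clec4e changed by -2.71 with OA and by -0.64 with SA, both past the test in limma. Over the same times Clec4n changed by 0.48 with OA, which did not pass, and by 1.57 with SA, which did. With LPS 4 rose and 2 fell, with Clec4e at 2.65, Cd300lb at -2.42, Clec5a at 1.42 and Trem1 at 1.31. At 5 h between the acids 1 rose, Clec4e at 1.67. Of all genes, 9.22% were called higher and 13.2% lower with LPS. Between the acids these shares were 7.72% and 8.95% at 20 h, and 3.30% and 2.37% at 5 h.

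Of 8 measured transcription factors known to act at Fc receptor genes, 3 rose and 2 fell with LPS. Stat2 rose by 2.26, Irf1 by 2.37 and Cebpb by 0.71, while Cebpa changed by -1.41 and Runx1 by -0.68. Between the acids at 5 h 3 rose, Irf1 by 1.72, Cebpb by 0.65 and Stat2 by 0.29, on arrays where Fcgr1 was lower with SA. At 20 h Irf1 and Cebpb were higher with SA by 0.81 and 0.76, and Nr1h3 and Runx1 changed by -0.78 and -0.23. Of all genes, 9.22% were called higher and 13.2% lower with LPS. Between the acids these shares were 3.30% and 2.37% at 5 h, and 7.72% and 8.95% at 20 h. Spi1, which encodes PU.1, stood at 9.35 ± 0.13 with 20 h SA against 9.45 ± 0.02 with 20 h OA (SD, n = 4 each) and did not pass between the acids.

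Markers of macrophages moved on the same arrays. Between the acids at 20 h 10 of 11 fell and none rose (median -0.90), and at 5 h 2 fell and none rose (median -0.18). Of all genes, 8.95% were called lower at 20 h and 2.37% at 5 h. In the interaction 8 of the 11 passed with a negative value and none with a positive one (median -0.73, all genes 0.01). Of all genes 3.40% passed with a negative value there. The summed log2 level of the 11 markers was 95.6 to 97.8 on the 20 h SA arrays, against 108.8 to 109.6 on the 20 h OA arrays. At 5 h it was 105.4 to 106.4 with SA, against 108.3 to 108.9 with OA, and with LPS 106.0 to 108.1, against 108.0 to 109.1 with vehicle. Of the neutrophil list 6 of 10 rose and none fell from 5 h to 20 h of SA, with a median change of 0.38 and a summed level of 64.5 to 67.5 at 20 h against 58.0 to 62.9 at 5 h. In OA 2 of 10 rose and none fell over the same times, with a median change of 0.33 and a summed level of 66.0 to 67.2 at 20 h against 62.4 to 64.5 at 5 h. Of all genes, 6.23% were called higher over these times with SA and 2.58% with OA. None of the 10 neutrophil genes passed limma's test of the difference between the acids in the change over time. None had an unadjusted p under 0.05 in that test. The neutrophil-defining Ly6g had its highest group mean at 3.25, below the median gene. None of the 10 neutrophil markers passed between the acids at 20 h. The part of these markers in the Fc receptor results was not tested.

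For each gene the 3 other genes with the most similar profile over the 23 arrays were named by their Pearson correlation, as a description, since the arrays fall into 6 treatment groups. For Fcgr1 they were Tlr8 (r = 0.983), Il10ra (0.953) and Ms4a6b (0.952), each lowest in 20 h SA and highest in LPS. For Fcgr2b they were Mx1 (0.990), Gbp3 (0.988) and Gbp5 (0.988), all highest in LPS. For Fcgr4 they were Crybg1 (0.926), Themis2 (0.912) and Milr1 (0.894), and for Fcgr3 Tm9sf2 (0.914), Arrdc3 (0.895) and Gcnt1 (0.893), which were lowest in LPS and highest in 20 h OA. For Fcer1g they were Cd52 (0.894), Ano6 (0.879) and Slc44a1 (0.872). Among the 5 themselves r was highest for Fcgr1 with Fcgr4 (0.85) and lowest for Fcgr2b with Fcgr3 (-0.76).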

How the data were processed

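The values are the authors' deposited log2 expression per probe set, made by RMA (background correction, a common distribution across arrays, summary over probes) per the submitters' processing notes, which also name limma without a role or versions. They ran from 0.380 to 12.9, with none negative or missing and no 2 arrays identical. Of 35556 probe sets, 21789 carried 1 gene symbol and were used, with the one of highest mean per gene. No Fc receptor gene had a choice of probe sets. With limma 3.58.1 (R 4.3.3), 1 linear model with 6 group means was fitted per gene over 19938 genes, two-sided, with p-values adjusted by Benjamini-Hochberg over all genes of a comparison and called under 0.05. The number of arrays limits the precision, and signal over background was not assessed. Named genes are all 5 members, up to 4 largest called changes per related list (up to 2 in lesser comparisons) and the 3 most similar profiles. The members, lists and tests were chosen with earlier results of these data known, and the promoter motifs after the sequences were seen. Related lists had 12 of 14, 24 of 26, 11 of 11, 12 of 16, 15 of 18 and 8 of 10 genes measured. All 5 members matched a RefSeq promoter (GRCm38.p6). The fit was tested on simulated data. Alternatives were other variance moderation, array centring, quantile scaling, array weights, a filter on dim genes, other probe set rules, a replicate block, fits limited to the groups in question and leaving out each array. Figures used Python 3.11.15 and matplotlib 3.10.9.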

Additional observations from a re-analysis of the deposited data

Results flagged for a closer look

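Fcgr1 had a larger difference between SA and OA at 20 h than at 5 h, by -1.06 on the log2 scale (adjusted p = 0.000165 for the interaction in limma). All 8 SA arrays lay below all 8 OA arrays, both times pooled.

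In 3 of 25 combinations of a gene and a group of 4 arrays, 1 array stood apart relative to the group's own range. Chance gives about 1 in 20, and the combinations share arrays, so they are not independent. Fcgr3 on replicate 2 of 20 h SA was 9.82, against 10.07 to 10.09 on the others of its group, and that array also stood apart over all genes. Fcgr2b on replicate 3 of 20 h OA was 6.28, against 6.58 to 6.64. Fcer1g on replicate 1 of 20 h OA was 11.48, against 11.51 on each of the others, a gap smaller than that gene's residual SD of 0.05.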

How the results depend on the processing

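Over the alternatives, 161 of 190 counts of called Fc receptor genes stayed within 1.5 times, 21 were lower and 8 higher. Of 950 single changes, 897 kept direction and side of the threshold. From 5 h to 20 h of OA, 2 genes were called instead of 1 with a variance trend, quantile scaling, array weights or without dim genes (Fcgr2b gained), and 0 with the replicate block. Centring called Fcgr2b (adjusted p = 0.0456) in place of Fcgr1. In the interaction 2 were called instead of 1 with a variance trend, quantile scaling or array weights, Fcgr3 being gained at 0.35 to 0.44. For 5 h SA against vehicle 1 was called instead of 2 with centring, with only the compared groups or with the replicate block, Fcgr3 being lost. Leaving out 1 array gave counts of 1 to 2 for SA against vehicle (5 h and 20 h), SA against OA at 20 h and the interaction, 0 to 1 for OA over time and 2 to 3 for SA against OA at 5 h. Fcer1g with LPS turned to 0.05 with centring, 0.03 with quantile scaling, 0.01 with array weights and 0.00 with the replicate block, and ran from -0.05 to 0.04 over left-out arrays. Over left-out arrays sign also turned for Fcer1g with 5 h OA (-0.02 to 0.07) and 20 h OA (-0.08 to 0.01) and for Fcgr4 with 5 h OA (-0.01 to 0.13) against vehicle, and for Fcgr4 over time in SA (-0.05 to 0.10). Genes called in all for 5 h OA against vehicle were 14, 29 with a variance trend and 7 with only the compared groups. With only those groups the counts fell to 373 of 664 for 5 h SA against vehicle and 660 of 1131 for SA against OA at 5 h, and array weights gave 1537 for 937 with 20 h OA against vehicle. The causes were not tested, beyond the fewer arrays where groups were left out. Same-numbered replicates did not deviate together (mean r 0.020 over 55 pairs of arrays), so the numbers were not taken as pairs.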

Other observations

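Fcgr2b, Fcgr4, Fcgr3 and Fcer1g lie on chromosome 1 in that order in RefSeq, and Fcgr1 lies on chromosome 3. Between Fcgr2b and Fcer1g, 7 other genes were measured. With LPS 2 of them rose and 2 fell, where 9.22% of all genes were called higher and 13.2% lower. Gm10522, a non-coding RNA listed between Fcgr2b and Fcgr4, rose by 1.22 (adjusted p = 0.000106), at a mean level over the arrays of 2.68 that is below the array medians, and Apoa2 rose by 0.73. Sdhc changed by -0.34 and Pcp4l1 by -0.69. Between the acids at 20 h, 3 of the 7 fell: Pcp4l1 by -2.29 (adjusted p = 2.66e-13), Tomm40l by -0.40 and Sdhc by -0.29. Of all genes, 7.72% were called higher and 8.95% lower between the acids at 20 h. Of the 4 Fc receptor genes there, Fcgr4 passed in that comparison at -0.38, and Fcgr2b at 0.14, Fcgr3 at -0.17 and Fcer1g at -0.17 did not. These neighbours were looked up after the values of the Fc receptor genes had been seen.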
